A study of Arabidopsis thaliana with 6 samples.

Results

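The 10 genes studied here belong to the phenylpropanoid and flavonoid pathway of Arabidopsis thaliana: PAL1, PAL2, PAL4, 4CL1, 4CL3, CHS, FLS1, LDOX, GSTF12 and MYBL2. They were chosen by name from the 22759 named rows of the deposited tables, where 9 of the 10 have a row of exactly that name and MYBL2 (AT1G71030) appears as ATMYBL2. All 10 passed the filter on low values. RNA sequencing compared 3 libraries of hrlp-2, a mutant line labelled as a knockout of HRLP in which no other allele or treatment is named, with 3 libraries of WT, labelled Col. For both genotypes, total RNA was taken from the shoots (aerial parts) of seedlings aged 9 days, kept at 23 ± 2 °C in 16 h of light and 8 h of dark. Values are reads scaled to a common library total (CPM), and from the steps between the lowest values 1 CPM was worth an estimated 20 to 25.2 reads in hrlp-2 libraries and 22.1 to 23.5 reads in WT libraries. The labels number the libraries as replicates without saying that they came from separate plants or cultures, so p-values measure only the spread between these libraries, which may be technical. In some genes WT replicate 3 stood apart from WT replicates 1 and 2 (mean chi-square per gene of 13.381 and 11.267, against 2.256 to 2.509 for the other pairs of one genotype), and results that change without it are given so.

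Phenylpropanoid synthesis starts when phenylalanine ammonia-lyase (PAL) removes ammonia from phenylalanine. Cinnamate 4-hydroxylase (C4H) and 4-coumarate:CoA ligase (4CL) then make coumaroyl-CoA, from which a first branch leads to lignin and sinapate esters and another, through chalcone synthase (CHS), to flavonoids. Flavonoid precursors go to flavonols through flavonol synthase (FLS) or to anthocyanins through dihydroflavonol reductase and leucoanthocyanidin dioxygenase (LDOX), and anthocyanins then reach the vacuole with the help of the glutathione transferase GSTF12. In seedlings these compounds serve as ultraviolet screens and red pigments, and MYBL2 represses the anthocyanin branch.

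In hrlp-2 seedlings 4 of the 10 genes were higher and 0 were lower, at an adjusted p below 0.05 (limma, Benjamini-Hochberg over 18643 tested rows). Over all tested rows 11.1% were called higher in hrlp-2, 9.31% lower and 20.4% in either direction. The 4 genes were the flavonoid genes CHS, LDOX and GSTF12 and the repressor gene MYBL2, while PAL1, PAL2, PAL4, 4CL1, 4CL3 and FLS1 did not pass. Fold changes were largest for LDOX (1.43-fold) and GSTF12 (1.37-fold) and smaller for MYBL2 (1.19-fold) and CHS (1.15-fold), on the log2(CPM + 0.5) scale. The median log2 fold change was 0.10 over the 10 genes and 0.00 over all tested rows. The groups did not overlap for 5 of the 10 genes, against 33.4% of all tested rows. In whole aerial tissue, more cells that express a gene and more RNA per cell cannot be told apart.

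**Figure D1:**
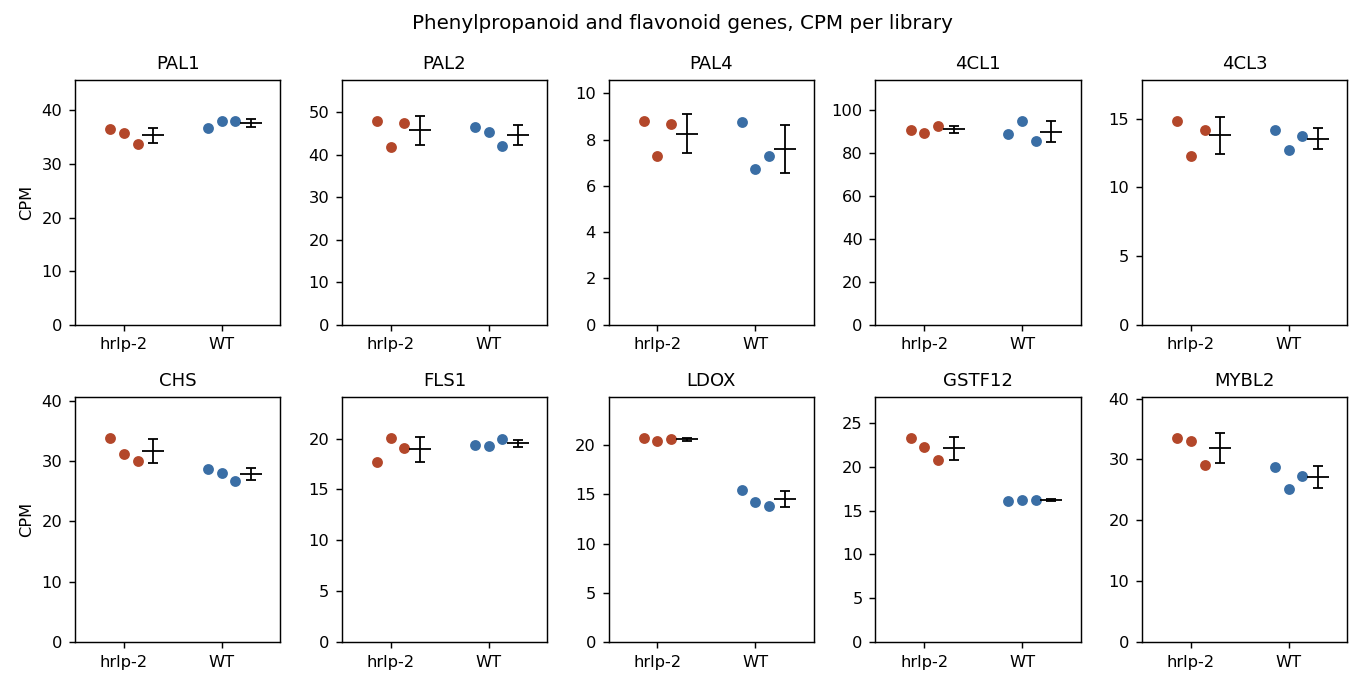
CPM of the 10 genes in each library (points, hrlp-2 left and WT right, each axis from 0), with the group mean and SD beside the points. LDOX lies between 20.43 and 20.77 CPM in hrlp-2 and between 13.85 and 15.44 CPM in WT, while PAL2, PAL4, 4CL1, 4CL3 and FLS1 overlap between the genotypes.

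The start-site flanks of CHS, DFR, LDOX and GSTF12 are shown because they mark the entry to the flavonoid branch and 3 called genes of the anthocyanin branch. Each is the 250 bases before the RefSeq gene start on TAIR10.1, read on the gene's own strand, and capitals mark ACGT, the core bound by bZIP factors such as HY5, and CACGTG, the G-box that contains that core. CHS (AT5G13930) is on the plus strand with its flank at chr5:4488226-4488475, and DFR (AT5G42800, row DFRA) on the minus strand at chr5:17166033-17166282. LDOX (AT4G22880) is on the minus strand with its flank at chr4:12006210-12006459, and GSTF12 (AT5G17220) on the plus strand at chr5:5658166-5658415.
CHS: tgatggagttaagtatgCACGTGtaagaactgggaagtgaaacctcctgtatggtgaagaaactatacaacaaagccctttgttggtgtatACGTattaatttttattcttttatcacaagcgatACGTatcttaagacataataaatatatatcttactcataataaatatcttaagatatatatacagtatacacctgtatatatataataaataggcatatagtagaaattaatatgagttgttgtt
DFR: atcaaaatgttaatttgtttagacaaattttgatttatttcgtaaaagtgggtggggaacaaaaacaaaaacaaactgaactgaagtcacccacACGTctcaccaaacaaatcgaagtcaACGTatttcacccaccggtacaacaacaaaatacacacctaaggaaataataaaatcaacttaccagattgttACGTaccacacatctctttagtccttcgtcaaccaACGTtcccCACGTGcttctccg
LDOX: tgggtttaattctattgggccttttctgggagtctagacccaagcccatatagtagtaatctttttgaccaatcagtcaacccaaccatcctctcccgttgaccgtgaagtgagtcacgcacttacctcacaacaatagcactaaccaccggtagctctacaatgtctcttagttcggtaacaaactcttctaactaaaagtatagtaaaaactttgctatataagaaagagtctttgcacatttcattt
GSTF12: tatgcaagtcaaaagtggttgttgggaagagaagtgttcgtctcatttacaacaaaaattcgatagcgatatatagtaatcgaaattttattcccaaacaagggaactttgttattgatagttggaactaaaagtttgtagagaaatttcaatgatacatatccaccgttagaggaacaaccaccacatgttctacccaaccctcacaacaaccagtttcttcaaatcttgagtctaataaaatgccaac
The CHS flank held 3 ACGT matches, 1 of them inside a CACGTG, and the DFR flank 5, again with 1 inside a CACGTG. The LDOX and GSTF12 flanks held no match to either. Among 27443 coding genes, 44.1% of such flanks held ACGT and 6.49% held CACGTG on either strand. Of the 10 genes, 5 held ACGT (PAL1, PAL2, PAL4, 4CL1 and CHS) and 2 held CACGTG (PAL4 and CHS). Of the 9 listed anthocyanin genes, 4 held ACGT and 3 held CACGTG, namely DFR, A3G2XYLT and SCPL10. AC elements are letters bound by R2R3-MYB factors of this pathway, and 3 forms were searched on both strands. The form ACCTACC was in 1.16% of all flanks and in 1 of the 10, that of 4CL3, which held it at 2 places. The form ACCAACC was in 2.69% of all flanks, in 0 of the 10 and in 2 of the 9 anthocyanin genes, UGT75C1 and SCPL10. The form ACCTAAC was in 2.46% of all flanks and in 0 of both groups, and ACCTACC was in 0 of the 9 anthocyanin genes. These matches are letters in a window and do not mark bound sites.

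HRLP (AT2G44710), the mutated gene, measured 16.56 ± 0.601 CPM in hrlp-2 and 31.15 ± 1.65 CPM in WT (SD, n = 3 each), so that 53.2% of the WT level remained. The aerial sample was checked against marker genes. The leaf genes RBCS-1A, LHCB4.1, PSBO1 and LHCA2 were higher and LHCB1.1 lower in hrlp-2, and these 5 rows lay between 3708.23 and 16120.40 CPM. Of the root markers, the Casparian strip genes CASP2 and CASP4 had a value of 0 in each of the 6 libraries, and the root hair gene COBL9 reached at most 0.08 CPM in hrlp-2 and 0.09 CPM in WT. CASP1, of the same family, was detected in all libraries, at 0.25 to 0.75 CPM in hrlp-2 and 0.30 to 0.53 CPM in WT. PYK10 (row BGLU23) and TIP2-2 were higher in hrlp-2, 2 of the 3 root markers tested, and the nitrate transporter gene NRT2.1, the other one, did not pass at 1.38 ± 0.625 CPM in hrlp-2 and 1.73 ± 0.0954 CPM in WT (SD, n = 3 each, log2 fold change -0.29, limma adjusted p = 0.397). The summed level of the 7 root marker rows was 396.72 to 412.07 CPM in hrlp-2 and 338.84 to 345.52 CPM in WT. Nearly all of this sum came from 2 rows and it does not describe the other markers. These were PYK10, with means of 266.85 CPM in hrlp-2 and 231.61 CPM in WT, and TIP2-2, with 134.77 and 107.59 CPM. The part of root markers in the results below was not tested.

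Transcripts of the entry enzyme PAL did not pass the test in any copy. PAL1 (AT2G37040, chromosome 2, 15557367 to 15560755, minus strand), a major copy in stems and leaves, measured 36.53, 35.72 and 33.70 CPM in hrlp-2 and 36.75, 38.10 and 38.02 CPM in WT. Every hrlp-2 library lay below every WT library, by a small margin, and the fold change did not pass (log2 fold change -0.07, 95% interval -0.18 to 0.04, limma adjusted p = 0.38). PAL2 (AT3G53260), which acts redundantly with PAL1, measured 48.09, 41.86 and 47.42 CPM in hrlp-2 and 46.53, 45.28 and 42.00 CPM in WT. Its groups overlapped (log2 fold change 0.06, interval -0.05 to 0.16, limma adjusted p = 0.512). PAL4 (AT3G10340), linked to lignin supply, was the weakest of the 10 at 8.82, 7.29 and 8.66 CPM in hrlp-2 and 8.76, 6.74 and 7.29 CPM in WT, and its interval of -0.10 to 0.37 was the widest of the 10. PAL3 measured 15.40 ± 0.764 CPM in hrlp-2 and 14.76 ± 0.887 CPM in WT (SD, n = 3 each) and did not pass either (limma adjusted p = 0.541). The summed level of the 4 PAL rows was 99.46 to 108.93 CPM in hrlp-2 and 101.25 to 106.67 CPM in WT.

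None of the ligase genes passed either. 4CL1 (AT1G51680, chromosome 1, 19158746 to 19161737, minus strand), the copy that serves mainly lignin, measured 90.77, 89.31 and 92.54 CPM in hrlp-2 and 88.89, 95 and 85.37 CPM in WT. The 3 hrlp-2 values fell inside the WT range (log2 fold change 0.04, interval -0.04 to 0.12, limma adjusted p = 0.53). Its gene overlaps by 24 bases that of HTT5 on the opposite strand, which measured 0.62 CPM in hrlp-2 and 0.57 CPM in WT. 4CL3 (AT1G65060), the copy associated with flavonoids, measured 14.85, 12.29 and 14.18 CPM in hrlp-2 and 14.16, 12.68 and 13.72 CPM in WT, with overlapping groups (interval -0.13 to 0.22, limma adjusted p = 0.792). The log2 ratio of 4CL3 to 4CL1 within a library, taken like the other ratios below on CPM + 0.5, averaged -2.68 ± 0.121 in hrlp-2 and -2.69 ± 0.148 in WT (SD, n = 3 each, two-sided exact permutation p = 1). C4H (row CYP73A5) lay slightly above WT without overlap, at 79.78 ± 0.997 CPM in hrlp-2 and 76.93 ± 0.729 CPM in WT (SD, n = 3 each), and missed the threshold (limma adjusted p = 0.184). The ligase gene 4CL2 also lay above WT without overlap, at 5.62 ± 0.376 CPM in hrlp-2 and 4.79 ± 0.254 CPM in WT (SD, n = 3 each). It did not pass (1.17-fold, limma adjusted p = 0.222). The row 4CL4 overlapped, at 2.36 ± 0.361 CPM in hrlp-2 and 2.25 ± 0.0709 CPM in WT (SD, n = 3 each, limma adjusted p = 0.833). Of the 9 general phenylpropanoid genes tested, 0 were higher and 0 lower, with a median log2 fold change of 0.07. Of all tested rows 20.4% were called in either direction, and the difference from that share was not tested.

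CHS, which condenses coumaroyl-CoA with malonyl-CoA, measured 33.83, 31.07 and 29.97 CPM in hrlp-2 and 28.62, 27.98 and 26.66 CPM in WT. The groups did not overlap, but the lowest hrlp-2 library and the highest WT library were close. The rise was 1.15-fold (interval 1.06 to 1.25, limma adjusted p = 0.0115), and the call ended without hrlp-2 replicate 1 (adjusted p = 0.0998) or without WT replicate 3 (adjusted p = 0.0588). CHS was the 1 called gene of 5 early flavonoid genes, against 20.4% of all tested rows called in either direction. The chalcone isomerase row CHI1 measured 12.83 ± 0.676 CPM in hrlp-2 and 12.05 ± 0.674 CPM in WT (SD, n = 3 each), and F3H, which hydroxylates flavanones, 7.91 ± 0.498 CPM in hrlp-2 and 8.12 ± 1.92 CPM in WT (SD, n = 3 each). CYP75B1, the flavonoid 3′-hydroxylase, measured 2.36 ± 0.210 CPM in hrlp-2 and 2.45 ± 0.499 CPM in WT (SD, n = 3 each), and the list's median log2 fold change was 0.01. The log2 ratio of CHS to PAL1 averaged -0.16 ± 0.0451 in hrlp-2 and -0.43 ± 0.0746 in WT (SD, n = 3 each). The ratios did not overlap, and the two-sided exact permutation p was 0.1, the smallest that 3 against 3 libraries allow (0.2 adjusted over the 4 ratios computed).

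On the flavonol side, FLS1 (AT5G08640, chromosome 5), the main flavonol synthase, measured 17.67, 20.08 and 19.11 CPM in hrlp-2 and 19.35, 19.25 and 19.96 CPM in WT. The WT values fell within the hrlp-2 range (log2 fold change -0.02, interval -0.17 to 0.12, limma adjusted p = 0.866). Among 6 flavonol genes 1 was higher and 0 lower, against 11.1% and 9.31% of all tested rows. The gene that passed was RHM1, which makes the rhamnose donor for flavonol glycosides and for pectin, at 101.61 ± 4.60 CPM in hrlp-2 and 93.13 ± 3.75 CPM in WT (SD, n = 3 each, limma adjusted p = 0.00639), a call that ended without hrlp-2 replicate 3 (adjusted p = 0.0687). The flavonol glycosyltransferase gene UGT78D1 lay lower without overlap, at 56.45 ± 1 CPM in hrlp-2 and 61.25 ± 3.40 CPM in WT (SD, n = 3 each), and did not pass (limma adjusted p = 0.145). FLS3, another flavonol synthase gene, had the largest fold of the list, at 1.71, 3 and 2.39 CPM in hrlp-2 and 1.45, 1.69 and 1.54 CPM in WT. Its groups did not overlap, and it did not pass (1.38-fold, limma adjusted p = 0.0851), although it did without hrlp-2 replicate 1 (adjusted p = 0.0263).

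Several genes of the anthocyanin branch were higher in hrlp-2. Of the 9 tested, 6 were higher, 0 were lower and 3 did not pass, and the list's median log2 fold change was 0.45. Of all tested rows 11.1% were higher and 9.31% lower, and the list was chosen with earlier results of these data known. LDOX (chromosome 4 of TAIR10.1, 12004726 to 12006209, minus strand) makes anthocyanidins and measured 20.77, 20.43 and 20.63 CPM in hrlp-2 and 15.44, 14.28 and 13.85 CPM in WT. The hrlp-2 values lay within a narrow band well above all WT values (log2 fold change 0.51, SE 0.0729, limma adjusted p = 2.55e-06). The SD of that band was 0.829% of its mean, below the counting error of LDOX, 5.72% in the library with its fewest reads. Such a spread does not show steady expression. GSTF12, which carries anthocyanins toward the vacuole, measured 23.31, 22.23 and 20.76 CPM in hrlp-2 and 16.12, 16.23 and 16.25 CPM in WT, where the libraries were nearly identical (log2 fold change 0.45, SE 0.0702, limma adjusted p = 9.61e-06). The WT SD of GSTF12, 0.432% of the mean, was likewise below its counting error, 5.28% in the library with its fewest reads. Its gene overlaps by 108 bases that of PSY, phytoene synthase, on the opposite strand, and the sources used here do not say whether counting used strand. PSY measured 307.35 ± 6.05 CPM in hrlp-2 and 296.12 ± 7.5 CPM in WT (SD, n = 3 each), 1.05-fold higher (limma adjusted p = 0.0392), and its part in the GSTF12 value was not tested. Among the other called pathway genes, CHS (by 2 bases), RHM1, UGT75C1 and AT2G44130 also overlap a coding gene on the opposite strand.

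The other 4 called genes of the branch were DFRA, A3G2XYLT, 5MAT and UGT75C1. DFRA, the dihydroflavonol reductase row just before LDOX, measured 22.04, 21.48 and 23.30 CPM in hrlp-2 and 16.42, 15.74 and 15.21 CPM in WT (1.42-fold, limma adjusted p = 1.77e-06). A3G2XYLT, which adds xylose to anthocyanins, had the largest rise of the branch, 1.75-fold (interval 1.46 to 2.09), with 6.87, 7.89 and 7.23 CPM in hrlp-2 and 3.83, 3.86 and 4.44 CPM in WT (limma adjusted p = 1.25e-05). Neither gene's groups overlapped. The malonyltransferase gene 5MAT rose 1.44-fold to 5.33 ± 0.354 CPM in hrlp-2, against 3.61 ± 0.295 CPM in WT (SD, n = 3 each, limma adjusted p = 0.00558). The anthocyanin 5-glucosyltransferase gene UGT75C1 rose 1.27-fold to 11.41 ± 0.161 CPM in hrlp-2, against 9.08 ± 1.13 CPM in WT (SD, n = 3 each, limma adjusted p = 0.0126), and lost the call without WT replicate 1 (adjusted p = 0.0972). The coumaroyltransferase gene 3AT1 (1.27-fold, limma adjusted p = 0.0839), SCPL10 (1.05-fold) and BGLU10 (0.91-fold) did not pass. UGT78D2, listed here with the flavonol genes, also glucosylates anthocyanidins, the step after LDOX. It measured 15.68, 16.93 and 16.48 CPM in hrlp-2 and 14.42, 14.72 and 17.29 CPM in WT, with overlapping groups, and did not pass (1.07-fold, limma adjusted p = 0.425).

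**Figure D2:**
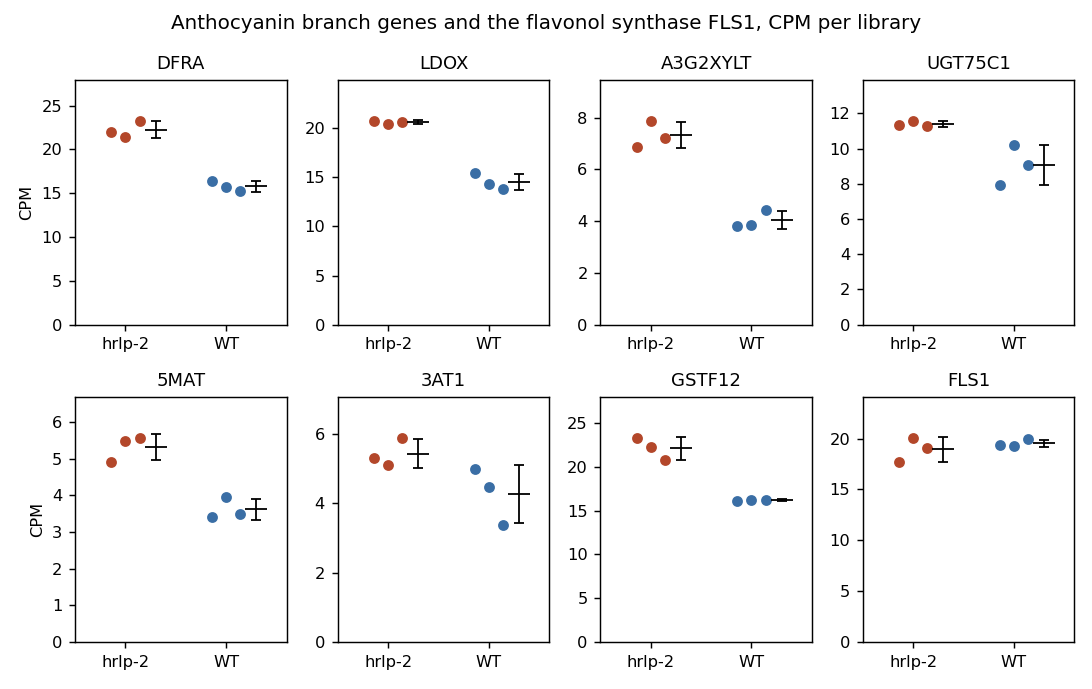
CPM per library (points) of 7 anthocyanin branch genes and of FLS1, with hrlp-2 left, WT right, each axis from 0, and the group mean with its SD beside the points. The 7 branch genes shown lie higher in every hrlp-2 library than in any WT library, although 3AT1 did not pass the test. FLS1 overlaps between the genotypes, as do SCPL10 and BGLU10, which are listed in the branch and not shown.

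The 2 branches that share the dihydroflavonol precursors were set against each other within each library. The log2 ratio of LDOX to FLS1 was 0.23, 0.02 and 0.11 in hrlp-2 and -0.32, -0.42 and -0.51 in WT. LDOX thus exceeded FLS1 in CPM in every hrlp-2 library and lay below it in every WT library, although CPM is not corrected for transcript length. The means differed by 0.54 on the log2 scale, with a two-sided exact permutation p of 0.1, the smallest possible here (0.2 adjusted over the 4 ratios). The log2 ratio of PAL4 to PAL1 overlapped between the genotypes, at -2.04 ± 0.163 in hrlp-2 and -2.24 ± 0.210 in WT (SD, n = 3 each, exact permutation p = 0.2).

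**Figure D3:**
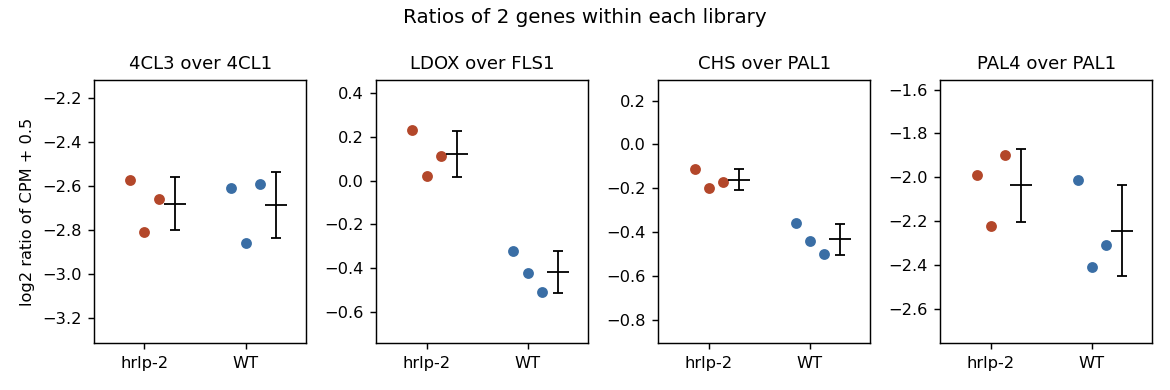
Log2 ratio of 2 genes within each library (points, hrlp-2 left and WT right), with group means and SDs, each panel spanning the same height on the log2 scale. The LDOX to FLS1 and CHS to PAL1 ratios do not overlap between the genotypes, with means 0.54 and 0.27 apart, and the 4CL3 to 4CL1 and PAL4 to PAL1 ratios overlap.

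Per kilobase of annotated exon, 4CL1 was the most abundant of the 10 in both genotypes, at 35.5 ± 0.632 CPM per kb in hrlp-2 and 35.1 ± 1.90 CPM per kb in WT (SD, n = 3 each). In WT it was followed by MYBL2, CHS, PAL2, GSTF12, PAL1, FLS1, LDOX, 4CL3 and PAL4, with means of 19.4, 16.3, 15.4, 14.8, 12.8, 12.1, 10.4, 6.11 and 2.79 CPM per kb. The WT ranges of CHS and PAL2, and of PAL2 and GSTF12, overlapped, and those of the other neighbours in this order did not. In hrlp-2 the order differed at GSTF12 (20.2 ± 1.17 CPM per kb), which came between MYBL2 and CHS, and at LDOX (14.7 ± 0.122 CPM per kb), which came above PAL1 and FLS1. The hrlp-2 ranges of GSTF12 overlapped those of MYBL2 and CHS, and the range of LDOX, 14.6 to 14.8 CPM per kb, lay inside that of PAL2.

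The 11 tested genes of the lignin and sinapate branch had a median log2 fold change of 0.06. Against 11.1% higher and 9.31% lower of all tested rows, 2 of them were higher and 0 lower. These were the methyltransferase genes CCoAOMT1 (157.00 ± 1.90 CPM in hrlp-2 and 145.06 ± 0.453 CPM in WT, SD, n = 3 each, limma adjusted p = 0.00119) and OMT1 (124.56 ± 1.38 CPM in hrlp-2 and 116.11 ± 3.35 CPM in WT, SD, n = 3 each, limma adjusted p = 0.00757). OMT1 acts on lignin precursors and also methylates flavonols. Proanthocyanidins are made in the seed coat. Of 5 listed genes, TT12 and TT10 had no row, BAN and TT2 stayed under the filter, and only AHA10, a proton pump gene, was tested. AHA10 was lower at 0.32, 0.70 and 0.41 CPM in hrlp-2, against 1.40, 1.15 and 1.04 CPM in WT (log2 fold change -0.80, limma adjusted p = 0.0146), and lost the call without hrlp-2 replicate 1 (adjusted p = 0.063) or WT replicate 1 (adjusted p = 0.0706). It passed the filter only through WT, as hrlp-2 replicate 2 alone reached 0.5 CPM in hrlp-2. With no filter its limma adjusted p was 0.00817. BAN, which diverts anthocyanidins to proanthocyanidins, was listed at 0 in 5 of the 6 libraries.

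**Figure D4:**
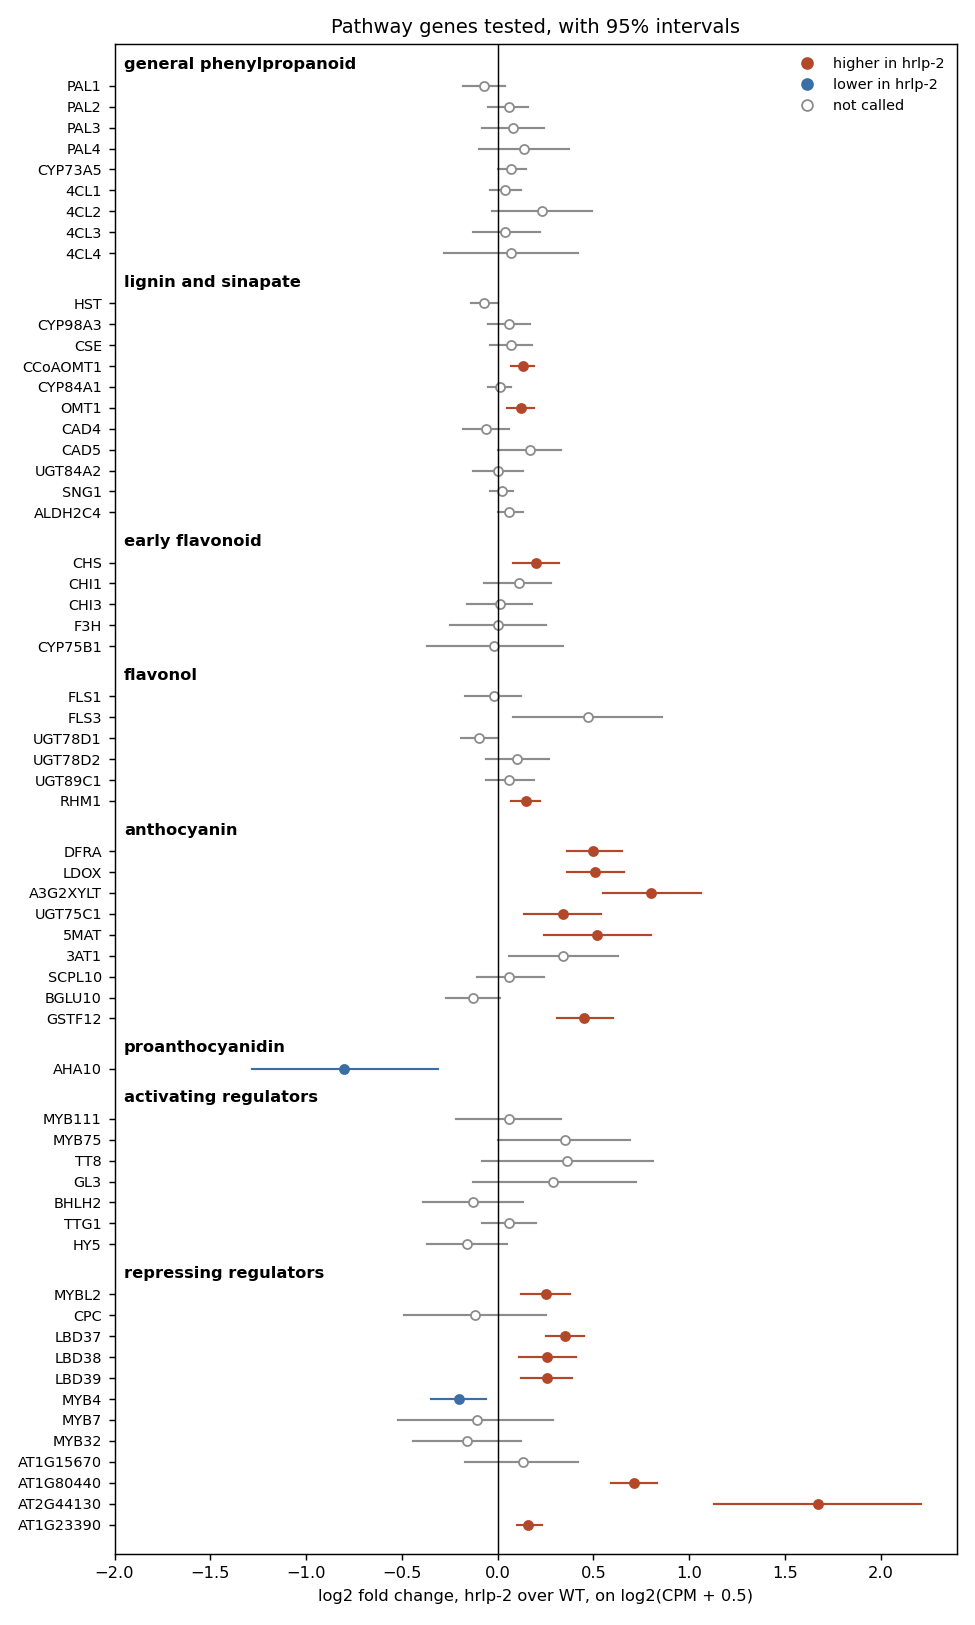
Log2 fold change of hrlp-2 over WT on log2(CPM + 0.5) for the 60 tested pathway genes, grouped by list, with 95% limma intervals; filled points passed the test and open points did not. The 6 called anthocyanin genes lie between 0.34 and 0.80, and none of the 9 general phenylpropanoid genes passed. Of all tested rows 20.4% passed.

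The activators of the pathway that were tested did not pass. Of 12 listed, 7 were tested and 0 were higher or lower, against 20.4% of all tested rows, a difference that was not tested. MYB75 (PAP1), which turns on the anthocyanin branch together with bHLH partners, measured 3.18, 2.55 and 2.76 CPM in hrlp-2 and 2.17, 2.00 and 2.26 CPM in WT. All hrlp-2 libraries lay above all WT libraries, without passing (1.27-fold, limma adjusted p = 0.155). The bHLH partner TT8 measured 1.30 ± 0.167 CPM in hrlp-2 and 0.92 ± 0.235 CPM in WT (SD, n = 3 each, limma adjusted p = 0.266). MYB111, which activates CHS and FLS1, measured 5.08 ± 0.660 CPM in hrlp-2 and 4.91 ± 0.304 CPM in WT (SD, n = 3 each), and its partner in that role, MYB12, stayed under the filter at 0.29 CPM in hrlp-2 and 0.22 CPM in WT. The WD-repeat gene TTG1 (limma adjusted p = 0.584) and the light regulator gene HY5 (9.83 ± 0.708 CPM in hrlp-2 and 11.29 ± 1.72 CPM in WT, SD, n = 3 each, limma adjusted p = 0.291) did not pass either. MYB90 and MYB113, close copies of MYB75 and of each other whose reads could be confused, stayed under the filter and were not tested. MYB90 was listed at 0 in all hrlp-2 libraries and at 0.09, 0.22 and 0.18 CPM in WT, and MYB113 at 0.04, 0 and 0 CPM in hrlp-2 and 0.21, 0.18 and 0.05 CPM in WT. For both, every hrlp-2 value lay below every WT value, the opposite order to MYB75, at a few reads per library or fewer. MYB114, also listed and under the filter, overlapped, at 0, 0.20 and 0 CPM in hrlp-2 and 0.13, 0.04 and 0.23 CPM in WT.

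Of the 12 tested genes listed as restraining the pathway, 7 were higher, 1 was lower and 4 did not pass, with a median log2 fold change of 0.21. The shares of all tested rows were 11.1% higher and 9.31% lower, and this list too was chosen with earlier results of these data known. MYBL2 (AT1G71030, chromosome 1, 26795052 to 26796532, minus strand), a small MYB protein that blocks the activating complex, measured 33.55, 33.02 and 29.05 CPM in hrlp-2 and 28.75, 25.10 and 27.34 CPM in WT. The lowest hrlp-2 library was just above the highest WT library (1.19-fold, interval 1.09 to 1.30, limma adjusted p = 0.00411), and the adjusted p was 0.0507 without WT replicate 2. LBD37, LBD38 and LBD39, nitrogen-responsive factors that repress anthocyanin synthesis, were all higher. LBD37 measured 54.48, 58.24 and 57.13 CPM in hrlp-2 and 47.68, 42.84 and 44.45 CPM in WT (1.27-fold, limma adjusted p = 1.36e-06). LBD38 (1.2-fold, limma adjusted p = 0.00791) and LBD39 (1.19-fold, limma adjusted p = 0.00479) followed, and LBD38 lost its call without hrlp-2 replicate 2 (adjusted p = 0.0621). MYB4, a repressor of C4H and sinapate ester synthesis, was the gene that was lower, at 16.70 ± 0.930 CPM in hrlp-2 and 19.59 ± 0.807 CPM in WT (SD, n = 3 each, limma adjusted p = 0.0435). Its call ended without hrlp-2 replicate 1 or 3, without WT replicate 1 or 3 and without the expression filter, with adjusted p-values of 0.068 to 0.181. The listed genes CPC, MYB7 and MYB32 overlapped between the genotypes and did not pass. Their log2 fold changes were -0.12, -0.11 and -0.16 (limma adjusted p = 0.71, 0.754 and 0.456).

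The rest of the repressing list that passed were kelch-repeat loci. Kelch-repeat F-box proteins are known to mark PAL and CHS proteins for breakdown, which acts on the enzyme and not on its transcript. AT1G80440, annotated in RefSeq only as a kelch-repeat superfamily protein, measured 35.70, 38.01 and 34.25 CPM in hrlp-2 and 21.18, 22.26 and 22.99 CPM in WT. The groups were far apart (1.63-fold, interval 1.5 to 1.78), and its adjusted p of 8.66e-11 (limma) was the smallest among the 60 tested pathway genes. AT2G44130, of the same annotation, was weak, with 1.83, 3.60 and 1.92 CPM in hrlp-2 and 1.02, 0.22 and 0.17 CPM in WT. It was 3.19-fold higher (limma adjusted p = 1.49e-05), and its log2 fold change of 1.67 ran from 1.25 to 2.42 with pseudocounts of 1 and 0.1 CPM and was 2.05 without WT replicate 1. It passed the filter only through hrlp-2, as WT replicate 1 alone reached 0.5 CPM in WT. With no filter its limma adjusted p was 0.00145. AT2G44130 lies on chromosome 2 at 18253610 to 18255054, near the mutated gene HRLP at 18432686 to 18437221. The part of this position in its value was not tested. AT1G23390, annotated as a kelch-repeat F-box protein, was the most abundant at 154.61 ± 2.4 CPM in hrlp-2 and 139.82 ± 0.592 CPM in WT (SD, n = 3 each, 1.12-fold, limma adjusted p = 0.000119). AT1G15670 did not pass, at 4.47 ± 0.667 CPM in hrlp-2 and 4.09 ± 0.378 CPM in WT (SD, n = 3 each, limma adjusted p = 0.604). The summed level of these 4 rows was 192.84 to 201.36 CPM in hrlp-2 and 165.61 to 167.50 CPM in WT.

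**Figure D5:**
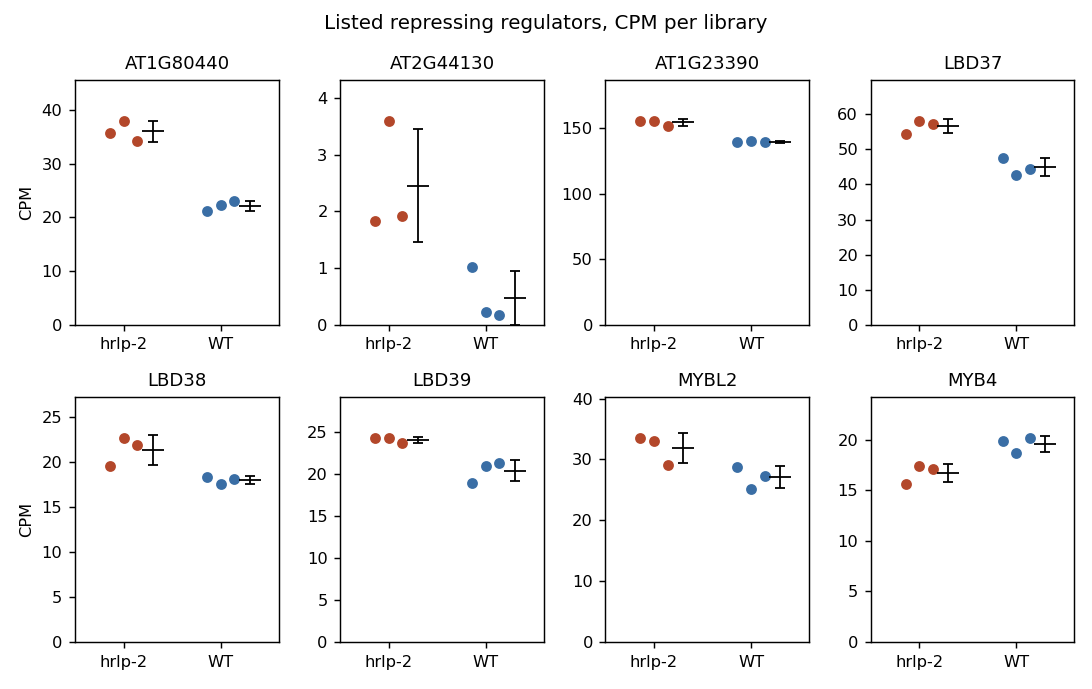
CPM per library (points, hrlp-2 left and WT right, each axis from 0) of the 8 genes of the repressing list that passed the test, with the group mean and SD beside the points. The 4 tested genes of the list that did not pass are not shown. AT1G80440 lies at 34.25 to 38.01 CPM in hrlp-2 against 21.18 to 22.99 CPM in WT, and MYB4 is lower in hrlp-2.

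Over all 8 lists, 17 of 60 tested genes were higher in hrlp-2 and 2 were lower, with a median log2 fold change of 0.07. Of the called genes, AT2G44130 and AHA10 passed the filter only through the genotype where they were higher. Among all tested rows 11.1% were higher and 9.31% lower, and the lists were chosen with earlier results of these data known. The 10 genes were also compared with all rows of clear expression by the root mean square difference of their log2 profiles, centred on the mean of the 6 libraries. Among 16772 rows, GSTF12 was number 54 in closeness to LDOX (difference 0.0726), MYBL2 number 793 and CHS number 1006, while PAL1 was number 10473. The closest rows to LDOX were AT5G19120, annotated as an aspartyl protease family protein (0.0114), AT4G25620 (0.0235) and NHL3 (0.0272). Those closest to CHS were PI4KG5 (0.0145), the boron transporter gene BOR1 (0.0164) and XYLT (0.0236), with MYBL2 at number 1178. These profiles share the same 6 libraries and the same contrast.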

How the data were processed

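RNA was sequenced from 3 hrlp-2 and 3 WT libraries, grouped by sample title. The library kit marks strand, per the labels' protocols. The submitters' processing notes list STAR 2.7.3a and TAIR10, and for the counter, annotation and strand setting nothing is stated (not given in the sources used here). The authors deposited 1 table per library in CPM, read off from columns that sum to 1000000.4 to 1000007.8 and from low values on 1 step per library (88.0% to 89.5% of values under 2 CPM, within 0.0051 CPM, against 20.4% to 25.7% from the spacing alone). As the other low values were off the steps, no count model was used. Estimated reads per gene cover counting error only.

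Each table held 22759 named rows and 1 unnamed row, which was left out. The 18643 rows that reached 0.5 CPM in 3 or more libraries were rescaled by trimmed means of M values (30% of M and 5% of A values trimmed, unweighted; factors 0.99007 to 1.013), and log2(CPM + 0.5) was tested with limma 3.58.1 in R 4.3.3 (intensity trend, two-sided, Benjamini-Hochberg, threshold 0.05). Fold changes on this scale understate changes of weak genes. Ratios of 2 genes, on unscaled CPM + 0.5, were tested by exact permutation, whose smallest p is 0.1.

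The 8 pathway lists hold 72 genes, of which 67 had a row and 60 were tested; 7 rows were matched by the UniProt name of the locus (4CL4, HST, CHI1, CHI3, DFRA, A3G2XYLT, BHLH2) and the others through RefSeq (TAIR10.1) or their own name. The members and lists were chosen with earlier results of these data known. Named genes were the 10 members, HRLP, called list genes and a fixed set of enzymes and regulators; list genes that did not pass and are named beyond that set, with the marker genes, were chosen after their values were seen. Within a genotype the median chi-square per gene of estimated reads was 0.795 to 0.919, against 0.455 from counting noise, so no library pair was merged. The fit was tested on simulated reads for hrlp-2 against WT (18622 rows, dispersion 0.003), with changes placed in genes of at least 2 CPM. Of 50 genes each, 50 changed 4-fold, 50 changed 2-fold, 47 changed 1.5-fold and 12 changed 1.2-fold were recovered, and 10 unchanged rows were called. The simulation used the same dispersion for all rows and changed far fewer rows than were called in the data. Its recovery rates therefore need not hold for these libraries. Flanks were read from the RefSeq TAIR10.1 genome. Alternatives were 3 other scalings, 2 pseudocounts, 2 filters, the replicate number as a block and leaving out each library.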

Additional observations from a re-analysis of the deposited data

How the results depend on the processing

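Under the 3 other scalings, pseudocounts of 0.1 and 1 CPM, no filter, a filter of 1 CPM and the replicate block, the 10 genes gave 4 higher and 0 lower each time. When single libraries were left out, 3 to 4 of them were higher and 0 lower. Over all 8 lists, 16 to 17 genes were higher when single libraries were left out and 17 under the other alternatives. Genes called lower numbered 2 in the main comparison, 1 without the expression filter and 0 to 3 when single libraries were left out. LDOX (log2 fold change 0.48 to 0.56) and GSTF12 (0.42 to 0.50) kept their calls under all 14 alternatives, and CHS lost its call in 2 and MYBL2 in 1. Genes that gained a call without 1 library were FLS3 (adjusted p = 0.0263), CAD5 (0.0263), 3AT1 (0.0375) and UGT78D1 (0.0314). With each library dropped in turn, HRLP lay between -0.90 and -0.83 in log2 fold change, the LDOX to FLS1 difference between 0.48 and 0.58 and the CHS to PAL1 difference between 0.24 and 0.31. Without the pseudocount these differences were 0.55 and 0.28. Scaling moved the median log2 fold change of all rows to -0.017 at the most, with 2061 rows higher and 1735 lower in the main comparison, 1862 and 1885 with upper-quartile scaling and 1639 and 2035 without rescaling. Libraries that share a replicate number did not deviate together (correlations of -0.008, -0.016 and -0.027). No pairing by number was seen, though such correlations cannot exclude one. With the replicate block 2059 rows were higher and 1725 lower. Depth limits the weakest genes, and PAL4, the weakest of the 10, rested on an estimated 146 to 222 reads per library, a counting error of 8.28% at the lowest.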
